A study of Branchiostoma belcheri with 2 samples.

Results

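Amphioxus are invertebrate relatives of vertebrates. The miRNA repertoire of the control gill of one of them, *Branchiostoma belcheri*, was described from 1 single-colour microarray. MicroRNAs (miRNAs) are short RNAs that pair with messenger RNAs, mainly through bases 2 to 8 (the seed), and lower their translation or stability. The amphioxus miRNAs were taken as all probes whose name carries the prefix bbe (*B. belcheri*) or bfl (the Florida amphioxus, *Branchiostoma floridae*). They numbered 260 of the 1686 miRNA probes on the array, 93 with the first prefix and 167 with the second. The choice used names and no measured value, but it was made with earlier results of these data known.

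The control animals were adults that received 15 µl of PBS into the body cavity and were kept at 25 °C. Their gills were removed and frozen, and the extracted total RNA was polyadenylated, ligated to a tag and stained with Cy3. The label of the control sample gives neither a time after injection nor a number of animals. An array of gill from animals given LPS (lipopolysaccharide, 12 h) also belongs to the study and is not used here. The control group has 1 array, so nothing was tested between samples. The errors are the SD, or the SE where stated, over 2 repeat spots of a probe, which is technical. In bulk tissue, fewer cells of a type and less RNA per cell cannot be told apart.

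An animal miRNA is cut from a hairpin whose 5′ side (5p arm) and 3′ side (3p arm) each give a strand of similar length. One strand is usually loaded into the Argonaute protein and kept, and the other is mostly degraded. The amphioxus gill is a ciliated epithelium on cartilage-like bars of the pharynx, where water is filtered for food. Many amphioxus miRNAs belong to families shared with vertebrates or other animals, and others, many with numbers above 2000, were named first in amphioxus.

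The comparisons turn on the sequences of the members, which were read from the array file, 5′ to 3′, with the seed in capitals. The 9 amphioxus miRNAs with the most abundant seed by signal, AUUGCAC, were the following.
bfl-miR-92b-3p: cAUUGCACucgucccggccuga
bfl-miR-92a: uAUUGCACuugucccggccuuu
bbe-miR-92c-3p: uAUUGCACuugucccggcucg
bbe-miR-2076-5p: aAUUGCACuagagugauuuguu
bfl-miR-92c: uAUUGCACuugucccggcuugc
bfl-miR-2063: uAUUGCACuaauuugcuuuuga
bbe-miR-92d-3p: uAUUGCACuuauccuggccugu
bbe-miR-2059-5p: uAUUGCACuguuuugcuuuga
bfl-miR-2059-3p: uAUUGCACuuuuuugcuuuga

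The brightest member of each of the other leading families, and the second seed of the miR-200 family, are listed next. These sequences name the target of each probe and do not identify the RNA that bound it.
bfl-miR-100-5p: aACCCGUAgauccgaacuugugu
bfl-miR-4866-5p: uCACACUUguacuucuuagcau
bfl-miR-2070-5p: uUUCCACAgccucuacacaugu
bfl-miR-29a-3p: uAGCACCAuaugaaaucaguuau
bfl-miR-2067: aAGCAGCAguaugcaauggug
bfl-miR-135a: uAUGGCUUucauccuaugugaa
bbe-miR-22-3p: aAGCUGCCagaugaagagcugu
bfl-miR-217: uACUGCAUcaggaacugauugga
bbe-miR-200c-3p: uAACACUGucugguaaugauga
bfl-miR-200b: uAAUACUGucugguaaugauguu
bfl-miR-184-3p: uGGACGGAgaacugauaaggg

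All 1686 probe sequences on the array were distinct, so a mature miRNA that amphioxus shares letter for letter with another listed species can appear only once, under either name. None of the 260 amphioxus sequences was identical to a probe of the 9 other species, and 37 lay within 2 edits of one (an edit is 1 base changed, added or removed). An RNA with no amphioxus name here can still have a probe under another species' name.

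The gill array detected most amphioxus miRNAs, but a small number carried most of the signal. Detection required a Cy3 intensity (median pixel value of a spot, averaged over 2 spots) above 121.9, the 95th percentile of 304 blank spots. The blank spots had a median of 107.3 (SD 10.6). By this rule 203 of 260 amphioxus miRNAs were detected (78.1%), against 38.4% of all miRNA probes and 31.2% of the 1426 probes of other species. The *B. belcheri* names gave 78 of 93 (83.9%) and the *B. floridae* names 125 of 167 (74.9%). Many detected miRNAs lay close to the blanks: 83 were below 243.8, which is 2 times the threshold, and 14 had 1 spot at or below the threshold. With the highest blank spot (202.7, the next being 129.1) as the threshold, 127 were detected. An intensity above 1000 was reached by 76 amphioxus miRNAs (29.2%, against 8.13% of other species' probes) and above 10000 by 27 (10.4% against 3.72%).

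Repeat spots agreed closely, with a median gap of 0.11 and a pooled SD of 0.14 log2 units. Of the detected members only bfl-miR-2063 had spots more than 2-fold apart, at 5766 and 2206. No amphioxus spot reached 65535, the highest value on the array, and the brightest was 54240. Across the 260 miRNAs the intensities and the authors' deposited values had a Spearman correlation of 0.996. The points share 1 array.

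**Figure D1:**
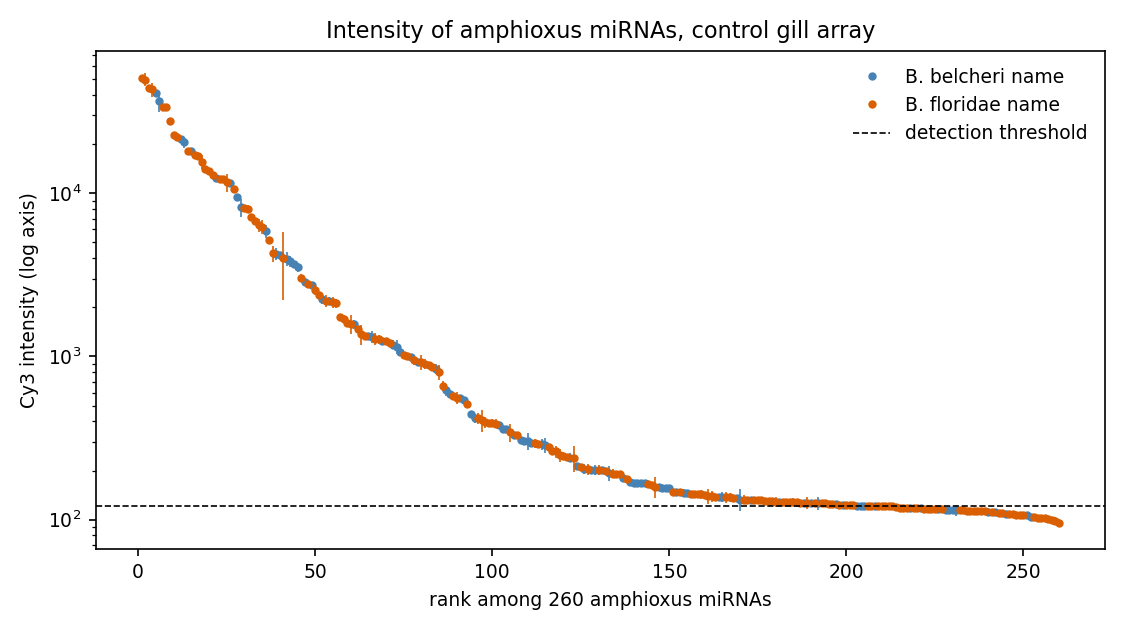
Cy3 intensity (log axis) of the 260 amphioxus miRNAs ranked from brightest to dimmest. Points are means of 2 spots, vertical lines join the 2 spots, colours give the species prefix, and the dashed line is the threshold of 121.9, which 203 miRNAs exceed; the long line near rank 40 is bfl-miR-2063.

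Signal below means intensity minus the blank median. Of the summed signal of detected amphioxus miRNAs, the brightest 1 held 6.23%, the brightest 10 held 47.0%, the brightest 20 held 68.7% and the brightest 50 held 92.9%. Probes of unlike sequence bind with unlike strength, so these ranks are of signal and not of copies of RNA. The brightest 20 were 15 *B. floridae* and 5 *B. belcheri* names. Families that also have probes of other species supplied 15 of these 20.

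The miR-100 and miR-4866 families led the list. bfl-miR-100-5p, of an ancient family that lies in a genomic cluster with let-7 and miR-125 in many animals, gave 49496 and 52165 on its 2 spots (mean 50831 ± 1887). bfl-miR-4866-5p, an amphioxus miRNA with no relative among the other species' probes, gave 54240 and 45219 (mean 49730 ± 6379). The spots of these miRNAs overlapped, so their order is not resolved. bfl-miR-2070-5p, also found under amphioxus names alone, gave 34089 and 33250 and stood well above bfl-miR-29a-3p (28113 and 27168). In mammals miR-29 is known as a repressor of collagens and other matrix proteins.

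The miR-92 family was the largest by summed signal. In vertebrates miR-92 belongs to the miR-17-92 and miR-106-25 clusters, known for roles in cell proliferation. All 10 of its amphioxus members were detected (against 78.1% of all 260), and together they held 20.4% of the signal. Its bright members were bfl-miR-92b-3p (43848 and 44371), bfl-miR-92a (47455 and 39126), bbe-miR-92c-3p (42900 and 39636) and bfl-miR-92c (34394 and 33190). The spots of bfl-miR-92a overlapped those of bfl-miR-92b-3p and of bbe-miR-92c-3p, and both spots of bfl-miR-92c were below all of theirs. bbe-miR-92d-3p shares their seed and differs downstream, and gave 4345 and 3562. The 5 members that are named 5p arms lay between 163.1 and 302.7. The only other amphioxus member of the miR-17-92 list, bfl-miR-19-3p, was not detected (112.0 and 112.8).

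The seed AUUGCAC was not limited to miR-92 names. It was carried by 9 members (3.46% of the 260), which held 25.8% of the signal and 5 of the 10 highest ranks. All 9 were detected, against 78.1% of all 260. bbe-miR-2076-5p, an amphioxus name, gave 41655 and 31541, of which the lower spot lay below every spot of the 4 bright miR-92 members. The others were bfl-miR-2063 (mean 3986), bbe-miR-2059-5p (3807 and 3523) and bfl-miR-2059-3p (150.3 and 127.4). The miR-92 a to c forms read much alike beyond the seed, and whether 1 RNA bound several of these probes was not tested. With only the brightest miRNA of each seed kept, AUUGCAC held 7.95%.

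Seen by other seeds, miR-135 was the next leading group with several members: AUGGCUU was carried by 3 members with 5.91% of the signal. bfl-miR-135a gave 21780 and 22319, bbe-miR-135a-5p gave 19039 and 21959, and bbe-miR-135b-5p gave 6392 and 5328. The spots of the miR-135a probes of both species overlapped, and miR-135b lay below them. Probes of the same family from other species were dim, with dre-miR-135b of zebrafish brightest at 368.3. The seed AGCAGCA was carried by 3 amphioxus names, bfl-miR-2067 (22838 and 22484), bfl-miR-2066 (mean 7107) and bbe-miR-2064-5p (mean 1570), with 3.81% of the signal.

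**Figure D2:**
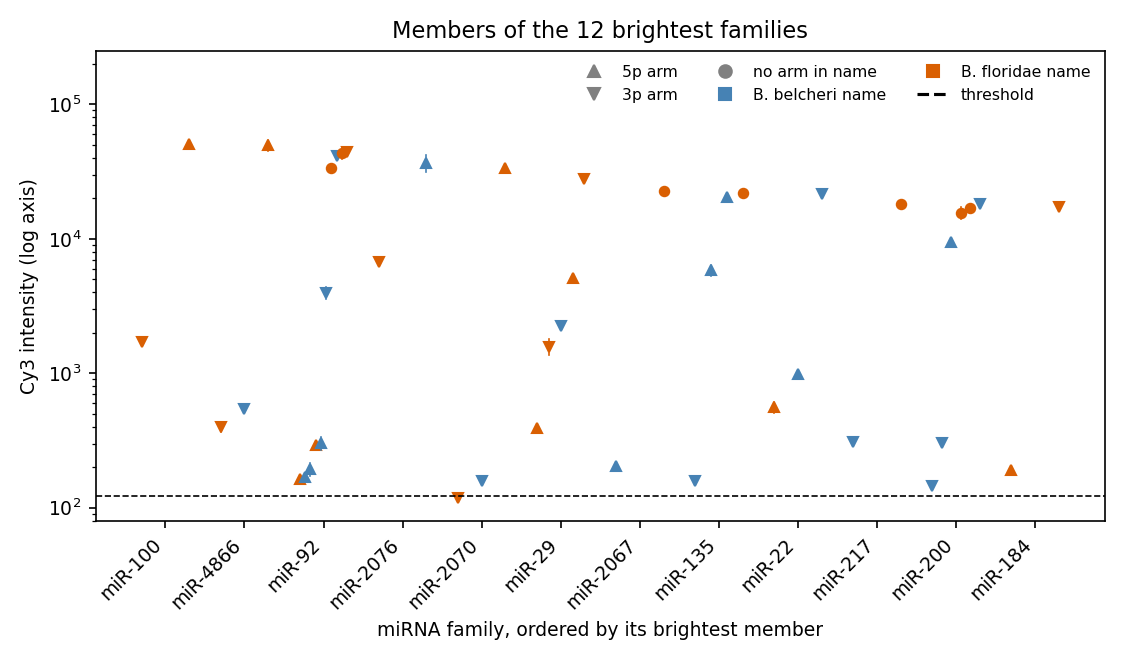
Cy3 intensity (log axis) of every amphioxus member of the 12 families with the brightest members. Triangles up are 5p arms, triangles down 3p arms, circles have no arm in the name, colours give the species prefix, lines join the 2 spots, and the dashed line is the threshold; each family spans a wide range, and only bfl-miR-2070-3p (mean 117.5) lies below the threshold.

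The 260 names fell into 111 families, of which 92 had a detected member. The 12 families with the brightest members were miR-100, miR-4866, miR-92, miR-2076, miR-2070, miR-29, miR-2067, miR-135, miR-22, miR-217, miR-200 and miR-184, and they held 70.1% of the signal. Of these, 8 also have probes of other species, and 4 have amphioxus probes alone. By summed signal miR-184 and miR-217 left these 12, and miR-2071 and miR-34 entered. Members of families shared with other species' probes were detected in 94 of 113 cases (83.2%) with 62.8% of the signal, and the others in 109 of 147 (74.1%) with 37.2%.

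Among the 260 members, those numbered in the 2000s and in the 4000s differed in level. The classes go by number alone and include bfl-miR-2013 and bfl-miR-4057, whose families also have probes of other species. The first class had 41 of 48 detected (85.4%, against 78.1% of all 260), 9 above 10000 and 25.2% of the signal. The second had 68 of 100 detected (68.0%) and 12.1% of the signal, and bfl-miR-4866-5p was its only member above 10000. The median intensity of detected members was 924.0 in the first class and 152.9 in the second. Further bright members of the first class were bfl-miR-2065 (13533 and 13778), bbe-miR-2071-5p (12597 and 12192), bfl-miR-2072-5p (12696 and 11771), bfl-miR-2061 (13194 and 10149) and bfl-miR-2062-5p (10556 and 10815). In the second class the next were bbe-miR-4857-5p (9240 and 7182), bfl-miR-4874-3p (8204 and 8021) and bfl-miR-4871-3p (6902 and 5591).

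The epithelial and ciliated list of conserved families comprised miR-200 and its relatives, kept in epithelia of many animals, miR-34 and miR-449, known in vertebrates for multiciliated cells, and miR-31, miR-203 and miR-205. It had 20 amphioxus members, 18 of them detected (90%, against 78.1% of all 260), with 10.5% of the signal. All 6 miR-200 members were detected. bbe-miR-200c-3p gave 18049 and 18039, bfl-miR-200c gave 17163 and 14066, bfl-miR-200b gave 17125 and 16616, and bbe-miR-200a-5p gave 9915 and 9137. These 4 carry the seeds AACACUG and AAUACUG, while the opposite strands bbe-miR-200a-3p and bbe-miR-200b-3p were dim at 305.3 and 145.8.

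The miR-34 family had 11 members, 10 of them detected (against 78.1% of all 260). Its seed GGCAGUG was carried by 8 members, of which 7 were detected, led by bbe-miR-34f-5p (3905 and 4627), bbe-miR-34a-5p (3535 and 4122), bfl-miR-34a (2886 and 3179) and bfl-miR-34b-5p (2314 and 1993). bfl-miR-34d, bbe-miR-34c-5p and bbe-miR-34h-5p had means of 388.1, 289.5 and 239.9, and bfl-miR-34e was not detected (124.4 and 116.5). The brightest miR-34 signal came from an opposite strand, bbe-miR-34b-3p, at 11738 and 11238. In the miR-31 family bfl-miR-31-5p gave 888.6 and 1013, and the 3p arms were at 129.1 (bbe) and 117.3 (bfl, not detected).

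Of the muscle list (miR-1 and miR-133, the classic miRNAs of striated muscle) 1 of 3 members was detected (33.3%, against 78.1% of all 260). This was bfl-miR-133, at 136.3 and 148.5. The undetected bbe-miR-1-3p and bbe-miR-133-3p lie nearest, within their families, to probes of other species named 5p arms. For miR-1, 7 of 16 probes of other species were detected, led by pma-miR-1c-3p of lamprey (mean 748.1). The neural and sensory list (miR-124 and miR-9 of neurons, miR-183, miR-96 and miR-182 of sensory cells, and others) had 13 of 18 detected (72.2%, against 78.1% of all 260) with 0.409% of the signal. Its highest were bbe-miR-7-3p (mean 1319) and bfl-miR-137 (mean 919.7). The sensory pair bbe-miR-183-5p and bfl-miR-183 had means of 442.9 and 391.6, and the miR-182 and miR-96 members ranged from 117.5 to 164.7. Some of these families were brighter under other species' names, with dre-miR-7a of zebrafish at 8500 and 9000 and dre-miR-9-5p at 1987 and 1777, while the amphioxus miR-7 and miR-9 probes are named 3p arms. The only amphioxus miR-96 probe is also named a 3p arm. In this family 4 of 6 probes of other species were detected, led by sko-miR-96-5p (mean 570.4). For miR-182 it was 1 of 7, pma-miR-182 (mean 132.0). The list share therefore leaves out such strands and is no measure of cell number.

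Of the endoderm and gut list, all 6 members were detected (against 78.1% of all 260), with 4.01% of the signal. bfl-miR-217 (17879 and 18401) and bfl-miR-216-5p (13876 and 14417), which are pancreatic miRNAs in vertebrates, held nearly all of it. miR-375, known from endocrine cells of vertebrates, gave means of 286.8 (bbe) and 239.8 (bfl). Of the Hox cluster miRNA miR-10, which lies among the Hox genes, 3 of 4 members were detected (75%, near the 78.1% of all 260). These were bfl-miR-10c (4776 and 3786), bfl-miR-10b (1327 and 1326) and bfl-miR-10a-3p (mean 660.3). Among miR-10 probes of other species 9 of 13 were detected, led by spu-miR-10 (mean 28981), so the amphioxus names leave out brighter probes of this family. The blood and immune list (miR-142, miR-155, miR-146, miR-223 and others of vertebrates) had 0 amphioxus members. No list holds a miRNA specific to gill, so the tissue label could not be checked from these values.

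The list of families shared by protostomes and amphioxus and missing from vertebrates had 7 of 11 members detected (63.6%, against 78.1% of all 260). bfl-miR-281 gave 12320 and 13488 and bfl-miR-71-5p gave 8447 and 7658. bfl-miR-71-3p (857.8), bfl-miR-278 (801.8) and bbe-miR-281-5p (555.7) were intermediate. Of the miR-252 and miR-242 members, bfl-miR-252a (131.4) and bfl-miR-242 (131.2) barely passed the threshold and the other 4 did not. Conserved families of many tissues gave 25 of 26 detected (96.2%, against 78.1% of all 260) and 16.8% of the signal. Among them were bbe-miR-22-3p (21666 and 21112), bfl-miR-184-3p (17241 and 17092) and bfl-miR-210-3p (2327 and 2457), the last a hypoxia miRNA in mammals.

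**Figure D3:**
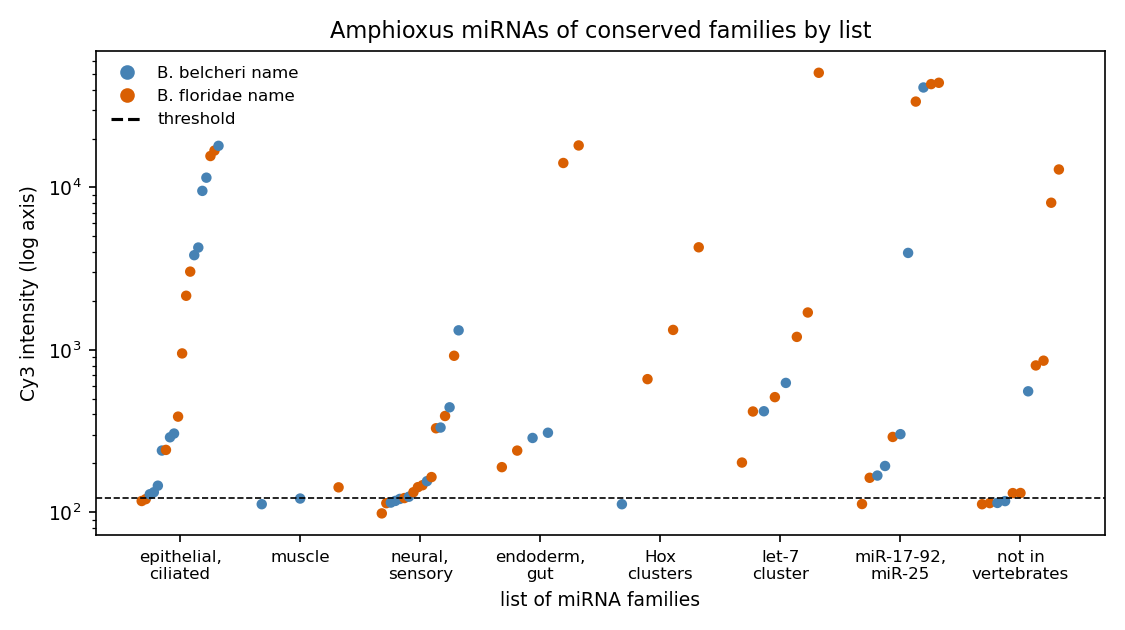
Cy3 intensity (log axis) of amphioxus miRNAs by list of conserved families, each list ordered from dim to bright within its column. Points are means of 2 spots, coloured by species prefix, and the dashed line is the threshold; the 3 muscle members lie at 142.4 or below, and all 6 endoderm members lie above the threshold.

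The let-7 cluster list shows how names and strands combine. All 8 members were detected (against 78.1% of all 260), but bfl-miR-100-5p supplied most of the signal, and the other members, between 202.3 and 1698, are strands opposite to the usual let-7, miR-100 and miR-125 forms or complements of them. bfl-let-7b and bfl-miR-125b were the exact reverse complements of zebrafish probes on the same array.
bfl-let-7b: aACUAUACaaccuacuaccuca
dre-let-7a: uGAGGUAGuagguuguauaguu
bfl-miR-125b: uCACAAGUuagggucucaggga
dre-miR-125b: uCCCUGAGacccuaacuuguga
bfl-let-7b gave a mean of 417.3 against 56095 for dre-let-7a, and bfl-miR-125b gave 202.3 against 63884 for dre-miR-125b, of which 1 spot read 65535. The sequences that match the mature let-7 and miR-125 forms of other animals were carried by probes of other species and are no members of the 260.

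For 47 amphioxus miRNAs, of 42 stems, both arms had a probe of the same species. In 30 both arms were detected, in 15 one arm was, and in 2 neither was. Where 1 arm was not detected, the threshold stood in for it. In each SE, single spots below the threshold were set to it, which can make the SE too small. A pair was counted as unequal at a signal ratio of 2-fold or more with spots that did not overlap. Of the 45 pairs with a detected arm, the 5p arm was brighter in 24 (53.3%) and the 3p arm in 16 (35.6%), and 5 were not counted. In the 120 such pairs of other species the shares were 31.7% and 35.8%. The size of these ratios depends on the blank level, since many dim arms lie just above it, and the arms are probes of unlike sequence that can bind with unlike strength. After subtraction of the blank median, the median ratio with both arms detected was 19.0-fold, 31 of the 45 pairs exceeded 10-fold and 12 exceeded 100-fold. In intensity without subtraction, a comparison added after the values were seen, the median was 12.6-fold, and 23 pairs exceeded 10-fold and 5 exceeded 100-fold. The bbe pairs gave 9 and 4 and the bfl pairs 15 and 12.

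**Figure D4:**
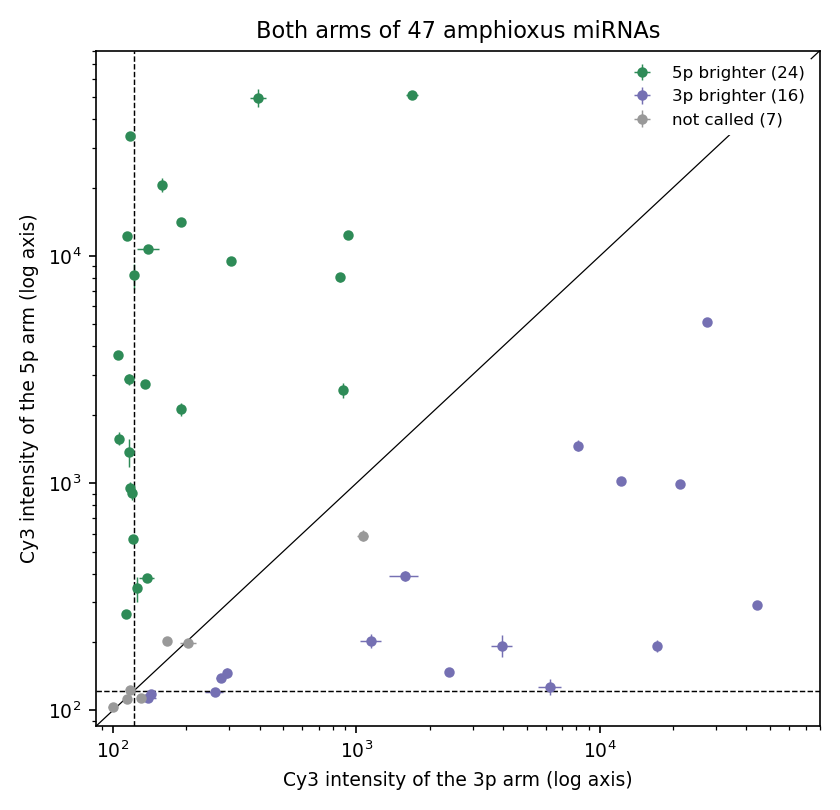
Cy3 intensity of the 5p arm against that of the 3p arm (log axes) for 47 amphioxus miRNAs. Error bars span the 2 spots, the solid line marks equal intensity, dashed lines are the threshold on each axis, and colours give the call; 23 of the 45 pairs with a detected arm lie more than 10-fold off the line.

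The 8 pairs with the largest signal ratio towards 5p were miR-2070, miR-2072, miR-2062 and miR-4866 of *B. floridae* and miR-4857, miR-135a, miR-2059 and miR-4856a of *B. belcheri*. In 4 of them the 3p arm was not detected, and the threshold set their rank. The ninth, bfl-miR-216, was close to bfl-miR-4866 (log2 ratios of 7.41 and 7.43), and by intensity without subtraction it ranked 6 while bbe-miR-4856a ranked 11. bfl-miR-2070-5p (34089 and 33250) faced a 3p arm at 120.3 and 114.7, which was not detected, a ratio of 287-fold in intensity without subtraction. bfl-miR-2072-5p (12696 and 11771) faced 115.6 and 112.5, also not detected, a ratio of 107-fold. In both the dim arm was below the threshold, so the ratio is of a bright spot to background.

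With both arms detected, the intensities differed by 129-fold for bbe-miR-135a, 126-fold for bfl-miR-4866, 76.5-fold for bfl-miR-2062 and 67.3-fold for bbe-miR-4857. After subtraction their log2 ratios were 8.63 ± 0.13 (SE), 7.43 ± 0.21, 8.35 ± 0.70 and 9.10 ± 0.18, so the order of the pairs differs between the scales. The 3p arm of bbe-miR-4857 read 121.7 and 122.3, at the threshold itself. The 3p arms of bbe-miR-2059 and bbe-miR-4856a were not detected (means of 104.5 and 115.9), so no size is given for these pairs beyond 5p means of 3665 and 2872.

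Towards 3p, bfl-miR-92b (152-fold) and bfl-miR-184 (89.6-fold) had the largest ratios of intensity without subtraction, followed by bfl-miR-4871 (49.3-fold). After subtraction bfl-miR-4871 came first, at a log2 ratio of -8.30 ± 0.53, against -7.90 ± 0.08 for bfl-miR-92b and -7.66 ± 0.20 for bfl-miR-184, and the errors of the first and second overlap. The 5p arm of bfl-miR-4871 gave 116.6 and 136.8, with 1 spot below the threshold, and its 3p arm gave 6902 and 5591. That low spot was set to the threshold in the SE, so the SE of this pair is too small. Conserved miRNAs followed, with log2 ratios of -5.80 ± 0.07 for bfl-miR-210, -5.49 ± 0.39 for bbe-miR-92d and -4.59 ± 0.04 for bbe-miR-22. The 3p strand is also the one usually listed as the mature form of miR-92, miR-184, miR-210 and miR-22. bfl-miR-2071 (-3.72 ± 0.05) and bbe-miR-2057 (-3.45 ± 0.27) completed the 8 largest.

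Some arm names point opposite ways. In 6 near-identical pairs, of 4 stems (miR-2059, miR-2071, miR-210 and miR-4868c), the *B. belcheri* and *B. floridae* names give opposite arms to nearly the same letters. bbe-miR-2071-5p (12597 and 12192) and bfl-miR-2071-3p (11932 and 12400) differ by 3 edits, share the seed UUGUUAC and had overlapping spots, yet miR-2071 counts once in each direction. bbe-miR-200a-5p lies 3 edits from pma-miR-200b-3p of lamprey, so its pair counts towards 5p under a strand that other species name 3p. Without the 4 stems of opposed names the counts were 22 towards 5p and 13 towards 3p.

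Among pairs of 1 species prefix, only bfl-miR-29a had both arms among the 40 brightest members, the 3p arm at 28113 and 27168 and the 5p arm at 5133 and 5137 (log2 ratio -2.45 ± 0.02). The next highest dimmer arms were those of bfl-miR-100 (50831 and 1698 for 5p and 3p), bfl-miR-4874 (1463 and 8112), bfl-miR-2071 (1024 and 12166), bbe-miR-22 (992.3 and 21389), bbe-miR-2071 (12395 and 924.0), bfl-miR-4859 (2567 and 880.3) and bfl-miR-71 (8053 and 857.8). The pairs not counted were bbe-miR-2058, bfl-miR-2058, bfl-miR-4868c, bfl-miR-4904 and bbe-miR-33. Of these only bbe-miR-33 was well above the threshold, at 586.9 and 1061 with a ratio of 1.99-fold towards 3p.

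For 17 further stems with a detected entry, the *B. belcheri* probe and the *B. floridae* probe had unlike sequences (at least 9 edits apart). They were chosen by this distance alone and read as opposite arms, since most of these *B. floridae* names give no arm. The distance of 1 probe to the reverse complement of the other ran from 6 edits (miR-2063) to 12 (miR-252a). The sequences therefore do not establish opposite arms for every stem. This comparison was added after the values were seen. The *B. floridae* entry was brighter in 12 and the *B. belcheri* entry in 5. The ratio of intensities exceeded 10-fold in 8 stems, in all of which the *B. floridae* entry was the brighter. In these 8 the *B. floridae* name gives no arm and the *B. belcheri* name gives an arm. The direction thus compares unlike sequences and is no comparison of the species. bbe-miR-92a-5p (mean 168.3) stood against bfl-miR-92a (43290), bbe-miR-200b-3p (145.8) against bfl-miR-200b (16870), bbe-miR-2067-5p (205.5) against bfl-miR-2067 (22661), and bbe-miR-217-3p (308.8) against bfl-miR-217 (18140). The largest ratios in the other direction were those of bbe-miR-2076-5p (mean 36598) against bfl-miR-2076-3p (6773), both among the 40 brightest members, and of bbe-miR-34b-3p (11488) against bfl-miR-34b-5p (2153). In the other 3 stems with the *B. belcheri* entry brighter, miR-182a, miR-34c and miR-2063, the intensities lay within 1.20-fold.

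The RNA came from *B. belcheri*, while 167 of the names are of *B. floridae*, so near-identical pairs show how far the names matter. Of 49 pairs of the same stem within 5 edits, 24 differed by 1 edit. Both miRNAs were detected in 37 pairs, neither in 6 and 1 only in 6. In 13 of the 37 pairs both miRNAs lay below 243.8, 2 times the threshold, so that their intensities could not differ by 2-fold. Of the other 24 pairs, 21 lay within 2-fold, both in intensity and after subtraction of the blank median, and the median ratio was 1.14-fold in intensity and 1.17-fold after subtraction. Among bright pairs, bbe-miR-92c-3p and bfl-miR-92c had means of 41268 and 33792, and bbe-miR-4887-5p and bfl-miR-4887 had 1182 and 1281.

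The largest difference was that of miR-2059. bbe-miR-2059-5p and bfl-miR-2059-3p differ by the single substitution G10U, counted from the 5′ end of the *B. belcheri* sequence. The *B. belcheri* form gave 3807 and 3523 and the *B. floridae* form 150.3 and 127.4, a 26.4-fold difference in intensity with no overlap (113-fold after subtraction of the blank median). The next largest differences among pairs detected in both were 2.18-fold in intensity (miR-4869-3p, 134.8 for bbe and 293.6 for bfl) and 2.17-fold (miR-33, 586.9 and 1273). After subtraction these were 6.77-fold and 2.43-fold, the first resting on a miRNA close to the threshold. The cause of this difference was not tested.

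**Figure D5:**
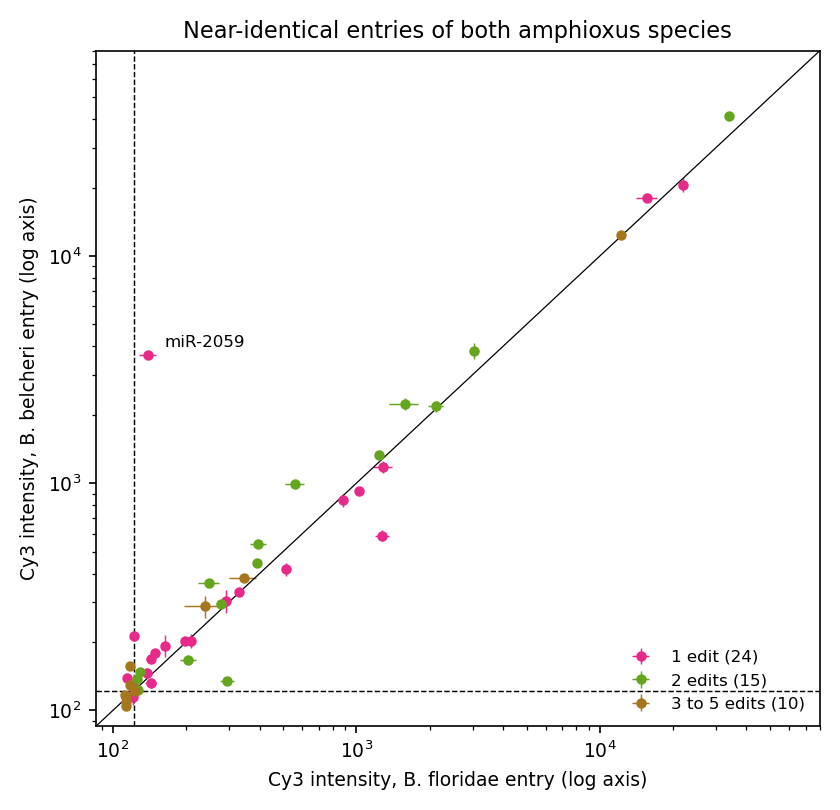
Cy3 intensity of the *B. belcheri* entry against that of the *B. floridae* entry (log axes) for 49 pairs of 1 stem within 5 edits. Error bars span the 2 spots, colours give the number of edits, the solid line marks equal intensity and dashed lines the threshold; the pair labelled miR-2059 lies 26.4-fold off the line.

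For members within 2 edits of another species' probe, only the nearest such probe was compared, and ties in edits went to the brightest. Of the 37 such members, 33 were detected, and for 29 of these the nearest probe read within 2-fold, including 11 of the 12 among the brightest 20. In 3 of the 33 both probes lay below 243.8, where a 2-fold gap was hardly possible. The 4 not detected lay at the blank level, where a ratio says nothing. The exceptions were bfl-miR-200b (16870 against 8085), bbe-miR-92d-3p (3953 against 44166 for dre-miR-92a), bbe-miR-33-5p (586.9 against 1900) and bfl-miR-9-3p (329.0 against 107.4 for sko-miR-79). bbe-miR-92d-3p shares the seed with dre-miR-92a, from which it differs by 2 edits. Some probes that were not chosen as nearest read further apart at 2 edits. Against bbe-miR-22-3p (21389), xtr-miR-22-3p read 2832, while pma-miR-22a-3p (12507.5) lay within 2-fold. Against bfl-miR-29a-3p (27640) pma-miR-29a-3p read 6478, and against bbe-miR-92c-3p (41268) cin-miR-92d-3p read 14697. Of the 260 members, 196 lay 6 or more edits from any probe of another species, and 151 of them were detected (77.0%, against 78.1% of all 260). An intensity above 1000 was reached by 42 of the 196 (21.4%, against 29.2% of all).

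The 57 members not detected lay between 95.84 and 121.5, and 12 of them were below the blank median. Of these, 33 were in families with another detected member and 24 in the 19 families with none. For 23 another member of the same stem was detected. Among conserved families with a detected member, the missing ones were bfl-miR-34e, bbe-miR-182b-5p, bfl-miR-31-3p, bbe-miR-252b-5p, bbe-miR-252a-3p, bfl-miR-252b-3p, bfl-miR-252b-5p, bfl-miR-129a-3p, bbe-miR-129a-3p, bbe-miR-133-3p, bbe-miR-10b-3p and bfl-miR-193a. bbe-miR-10b-3p (113.5 and 110.7) is the opposite strand to bfl-miR-10b, which was detected (1327 and 1326).

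The remaining 21 missing members of partly detected families carry numbers in the 2000s and 4000s. Those in the 2000s were bfl-miR-2068-3p, bfl-miR-2070-3p, bfl-miR-2072-3p, bfl-miR-2059-5p, bbe-miR-2059-3p and bbe-miR-2064-3p. Those in the 4000s were bbe-miR-4889b-3p, bfl-miR-4867, bfl-miR-4860-5p, bfl-miR-4868a, bfl-miR-4868c-3p, bfl-miR-4856b-3p, bbe-miR-4856a-3p, bfl-miR-4865-5p, bfl-miR-4882b, bfl-miR-4862-3p, bfl-miR-4900b, bbe-miR-4904-5p, bfl-miR-4904-5p, bfl-miR-4875a-5p and bfl-miR-4875b-5p. All 6 of the first group are arms of stems with a detected member.

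The 19 families with no detected amphioxus member included 6 that also have probes of other species: miR-1, miR-4057, miR-219, miR-153, miR-19 and miR-124. The other 13 were miR-2075, miR-4858, miR-4872, miR-4880, miR-4885, miR-4886, miR-4892, miR-4894, miR-4895, miR-4897, miR-4903, miR-4905 and miR-4906. For miR-4057, miR-153 and miR-19 no probe of another species was detected either. Of such probes 7 of 10 were detected for miR-219, led by csa-miR-219 (mean 205.7). For miR-124 it was 6 of 9, led by cin-miR-124-2-5p (mean 169.7). miR-153 is known from neurons, and miR-19 is a member of the vertebrate miR-17-92 cluster. bbe-miR-153-3p and bfl-miR-153 gave means of 114.7 and 113.8.

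For miR-1 the only amphioxus probe was unlike the strand detected under other names. bbe-miR-1-3p gave 120.8 and 122.2, just below the threshold. Its sequence lies 5 edits from sko-miR-1-5p of an acorn worm and 14 edits from cin-miR-1-3p of a tunicate, and the latter read 677.7 and 593.7.
bbe-miR-1-3p: aAGUACUUcuuuacuaucccau
cin-miR-1-3p: uGGAAUGUaaagaaguaugcgu
bbe-miR-133-3p (118.3 and 106.0) lies 1 edit from dre-miR-133a-5p (mean 114.7), and bfl-miR-124-5p (92.44 and 104.4) lies 2 edits from sko-miR-124-5p (115.5). cin-miR-1-3p and bfl-miR-133, which carry the strand that is usual in other animals, were above the threshold.

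Members on each side of the threshold were close to one another. Just above were bbe-miR-4857-3p (121.7 and 122.3), bfl-miR-4868c-5p (125.4 and 119.0), bfl-miR-182d (115.8 and 128.8), bfl-miR-4889b (128.2 and 117.7) and bbe-miR-4878-5p (124.4 and 122.0). Just below were bbe-miR-4889b-3p (121.0 and 122.1), bbe-miR-1-3p, bfl-miR-4867 (125.5 and 117.4), bfl-miR-4057 (117.7 and 124.5) and bbe-miR-219-3p (122.3 and 119.4). The spots of these groups overlapped, so their order is not resolved.

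Sequence features differed little between detected and missing members. The median GC content was 50% for detected and 47.6% for missing miRNAs, and with the 99th percentile of blanks as threshold the sign of this difference turned. The median length was 22 bases in each set. Uracil, the usual first base of mature miRNAs, opened 37.9% of the detected members, 47.4% of those not detected and 40% of all 260. Among the 50 brightest it opened 60.0%, and it opened 19 of the 27 above 10000. These are descriptions across probes of 1 array, which are not independent.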

How the data were processed

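Gill RNA of 1 control and 1 LPS sample was hybridised to single-colour miRNA arrays, and only the control array, grouped by the agent in its labels, was used. Spot values are median pixel intensities of the Cy3 channel, per the file headers, on a linear scale; no column of background was used. Total RNA was poly(A)-tailed and tagged for Cy3, per the labels' protocols. Details not given in the sources used here include the scanner, the software and the miRNA database release. The authors' deposited table, with 1 processed intensity for each probe and its background and scaling steps unstated, served as an alternative only.

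The 3968 spots held 3372 miRNA spots (1686 probes with 2 spots each), 304 blank spots (284 empty and 20 named BKG0) and other controls. Commas in the values were removed and the 2 spots averaged. Signal was intensity minus the blank median, and detection required a mean above the 95th percentile of blanks. Families were names without prefix, arm, letters and copy number. Edit distances counted changed, added or removed bases. The sequence for each probe came from the target column of the array file. No genome position of a miRNA was at hand, so none is given. The members, lists, rules and alternatives were chosen with earlier results of these data known.

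Named were the 20 brightest members, the brightest member of each of the 12 brightest families, the 8 arm pairs with the largest ratio in each direction, pairs with both arms among the 40 brightest, all members not detected (by family where none was detected), 5 members on each side of the threshold, and reverse complements within 2 edits of another probe. Names outside this rule, including whole lists and seed groups, were chosen after their values were seen. Alternatives covered other thresholds, background steps (including normexp with offset 50 in limma 3.58.1, R 4.3.3), single spots, the deposited values and other groupings of names. Tables were made with Python 3.11.15 and pandas 2.3.3. The number of arrays, 1, limits the precision.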

Additional observations from a re-analysis of the deposited data

Results flagged for a closer look

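Control spots for 5S ribosomal RNA of zebrafish (prefix dre), which entered no comparison, rose above the level of the blank spots for 4 of 6 sequences, with 4 spots each. Mean intensities were 3177 for dre-5S-b1, 655.3 for dre-5S-b2, 13271 for dre-5S-b3 and 3660 for dre-5S-b4. The other sequences, dre-5S-b5 and dre-5S-b6, read 112.6 and 107.3, below the detection threshold of 121.9. The cause was not tested.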

How the results depend on the processing

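No paired analysis was possible because each group has 1 array. The count of 203 detected amphioxus miRNAs ranged from 161 to 204 under the other thresholds and single spots, except 127 with the highest blank spot as threshold; 197 of the 203 were among as many brightest members of the deposited table. The 10 brightest held 47.0% of the signal, 45.9% with no background subtraction and 51.7% in the deposited table. With the 95th percentile subtracted it was 47.1% and with normexp 46.2%, changes below the spread between spots (SD 0.779). Single spots gave 46.4% and 47.5%, the values from which this SD was computed. Keeping 1 probe per distinct sequence could not change the share, since all sequences were distinct. The share of the seed AUUGCAC, an alternative added after the values were seen, was 25.8% and ranged from 24.8% to 26.7%, but was 7.95% with the brightest miRNA of each seed. Of the 12 brightest families 10 to 12 stayed under each alternative, and without spot 2 miR-4866 ranked above miR-100. Arm counts of 24 towards 5p and 16 towards 3p became 9 and 4 with bbe names only and 15 and 12 with bfl names only, since fewer pairs enter; under the other settings they were 22 to 24 and 13 to 18, and none of the 40 counted pairs changed direction. With no subtraction, an alternative added after the values were seen, pairs over 10-fold fell from 31 to 23 and pairs over 100-fold from 12 to 5. Of 37 close species pairs 34 were within 2-fold in signal (32 in the deposited table). The median GC difference between detected and missing members was 2.38 percentage points and -2.17 with the 99th percentile. Signals near the blanks limit ratios of dim arms and all calls close to the threshold. Animals and arrays were not replicated, so no spread between animals is known.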
